A study of Saccharomyces cerevisiae with 12 samples.

Results

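Ergosterol is the sterol of the yeast plasma membrane, and 31 genes that make, regulate, bind or store it were followed through a glucose pulse in cells that could or could not take glucose up. The members are genes of the budding yeast Saccharomyces cerevisiae chosen by name for their role: 9 of the mevalonate pathway, 3 of squalene and lanosterol synthesis, 11 that turn lanosterol into ergosterol, 2 electron donors, 3 transcription regulators, 2 sterol acyltransferases and 1 sterol binding protein. All 31 were measured, each by 1 probe set, among the 5449 genes tested. The cultures fall into 4 groups and were compared on Affymetrix expression arrays. The first was the null strain KOY.VW101P, from which all known hexose transporter genes were deleted, 20 min after a glucose pulse, and the second was the null strain at steady state before the pulse (0 min). The other groups were the isogenic reference strain KOY.PK2-1C83P, which keeps its transporters, at 20 min and at 0 min. Both strains are of the CEN.PK laboratory background and grew in chemostats with ethanol as the limiting carbon source, at a dilution rate of 0.1 per h, so every group was grown on ethanol and only the 20 min groups had received glucose. Each group holds 3 arrays, described as biological replicates. The labels name 1 strain of each genotype, so the strain comparisons rest on 1 null and 1 reference strain.

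Ergosterol is built from acetyl-CoA through mevalonate, farnesyl diphosphate, squalene and lanosterol, and several of the late steps consume oxygen and use haem enzymes. Budding yeast senses sterol depletion through the zinc cluster factors Upc2 and Ecm22, which activate many ERG genes, and stores surplus sterol as esters in lipid droplets. Under oxygen limitation it takes sterol up from outside instead, a switch in which Upc2 and Sut1 take part.

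The arrays were examined before the genes. HXT1, HXT3 and HXT7, which encode hexose transporters deleted in the null strain, lay within 0.072 log2 units of the lowest deposited value on all 6 null arrays. The arrays numbered 2 stood apart in every group, since each lay with the other labelled time of its own strain. Each was correlated over all genes tested with replicates 1 and 3 of its labelled time and of the other time. The mean correlations were 0.942 and 0.992 for the null array labelled 20 min, and 0.928 and 0.984 for that labelled 0 min. For the reference arrays they were 0.721 and 0.994 (20 min), and 0.728 and 0.992 (0 min). In the null strain the replicate 2 array labelled 20 min lay nearer the 0 min mean of replicates 1 and 3 for 24 of the 31 members, and that labelled 0 min lay nearer the 20 min mean for 20. In the reference strain the array labelled 20 min lay nearer the other time for 26 members and that labelled 0 min for 30. Results are therefore given for replicates 1 and 3 first, which leaves 8 arrays with 2 per group. With all 12 arrays under their labels, limma called no member over time in either strain, for the difference between the strains' responses, or between the strains at 20 min. At an unadjusted p under 0.05, 0 members passed over time or for the response difference on 12 arrays, and 5 passed between the strains at 20 min. The number of all genes that passed on 12 arrays is not given, so these counts are not shown to be particular to the members. No array was moved to another group, and the source of the arrangement was not tested.

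Values are log2 intensities after quantile normalization, and a gene was called at a limma adjusted p under 0.05 over all genes tested. In RNA from whole cultures, fewer cells with a transcript and less transcript per cell cannot be told apart. The members lay between 4.32 and 14.91 and none was within 0.25 of the lowest value of an array. The deposited array medians also moved with the groups: they were 10.61 and 10.42 in the null strain at 20 min, against 10.76 and 10.76 in the null strain at 0 min. They were 10.40 and 10.34 in the reference strain at 20 min, against 10.84 and 10.90 in the reference strain at 0 min. Sizes and some calls within a strain depend on how that shift is removed, and the values without normalization and with median centring are given where they matter.

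In the null strain 20 min after glucose, 7 of the 31 members were called, which is 22.6% of them, beside 27.5% of all genes tested. SUT1 and ARE2 rose, or 6.45% of the members beside 12.9% of all genes, and ERG2, ERG26, CYB5, UPC2 and ARE1 fell, or 16.1% beside 14.7%. In the reference strain 22 members were called, or 71%, beside 72.3% of all genes. The share of members called was thus near that of all genes in each strain. By direction, 15 members or 48.4% fell in the reference strain, beside 33% of all genes, and 7 or 22.6% rose, beside 39.3% of all genes. The median member changed by -0.14 in the null strain and by -0.30 in the reference strain, against 0.04 and 0.13 for all genes in those strains. The split by direction in the reference strain moved with the scaling, from 7 higher and 15 lower after quantile normalization, to 6 and 13 on values as deposited and 9 and 10 on median-centred arrays. The shares of 39.3% and 33% of all genes hold after quantile normalization only. Shares under the other scalings are not given, so the excess of falling members was not compared with all genes there. The median of all genes in that comparison was -0.38 as deposited and 0.11 on median-centred arrays.

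The response itself was compared between the strains by the interaction of strain and time. Of the 31 members, 16 or 51.6% had responses that differed, beside 66.3% of all genes. The difference of null minus reference response was above 0 for 10 of them, or 32.3% of the members beside 32.4% of all genes, and below 0 for 6, or 19.4% beside 33.9%. Of the 15 members that fell in the reference strain, 10 had a response that differed from that in the null strain, namely ERG2, ERG5, ERG6, ERG9, ERG10, ERG24, ERG27, ERG28, HMG1 and HMG2. The difference was below 0 for ERG2, which fell more in the null strain, and above 0 for the others named. SUT1, which rose in both strains, was also above 0. For ERG8, ERG11, ERG13, ERG20 and ERG25 the difference did not pass. The call of ERG27, at 0.65 (limma adjusted p = 0.0271), ended on leaving out any of 6 of the 8 arrays and on median-centred arrays. The difference of ERG4, -0.75 (limma adjusted p = 0.0562), passed on values as deposited and on median-centred arrays. That of ECM22 passed only as deposited, at 0.91 (limma adjusted p = 0.0297). That of ERG26 passed only on median-centred arrays, at -0.90 (limma adjusted p = 0.0272). There were 3 members that moved in opposite directions: UPC2, CYB5 and ARE1 fell in the null strain and rose in the reference strain. ERG2 fell in both strains, SUT1 and ARE2 rose in both, and 8 members were called in neither.

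**Figure D1:**
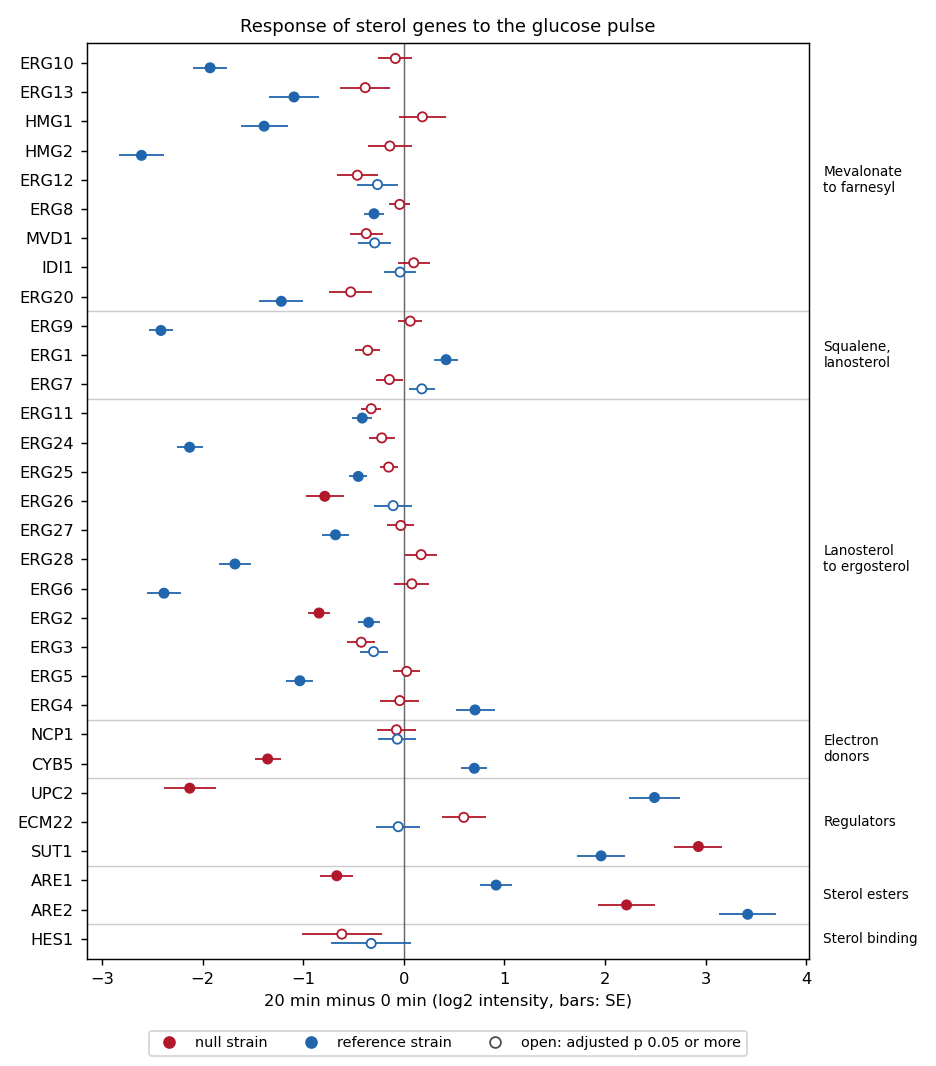
Response of each member to the glucose pulse, as log2 intensity at 20 min minus 0 min on the x axis (replicates 1 and 3, bars are SE of the fit), with the null strain in red above the reference strain in blue and open points for an adjusted p of 0.05 or more. Most points of the null strain lie near 0 in the biosynthetic steps, while in the reference strain HMG2, ERG9, ERG6 and ERG24 lie below -2 and ARE2, UPC2 and SUT1 lie to the right.

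The mevalonate pathway supplies the isoprenoid units. Of its 9 genes, none was called in the null strain, beside 27.5% of all genes, and 6 fell in the reference strain, beside 33%. In the null strain none of the 9 passed at an unadjusted p under 0.05 in limma either, beside 2244 of 5449 genes. The median change in the reference strain was -1.09, and with 9 genes these counts are small. HMG2 and HMG1 encode the isoforms of HMG-CoA reductase, the committed step that makes mevalonate. HMG2 lay at 11.60 and 11.13 in the null strain at 20 min and at 11.69 and 11.32 at 0 min, against 8.84 and 8.73 in the reference strain at 20 min and 11.55 and 11.24 at 0 min. Only the arrays of the reference strain at 20 min were low, and they did not overlap the other groups. HMG2 fell by 2.61 (SE 0.22) in the reference strain (limma adjusted p = 0.000212), and its change of -0.14 in the null strain had a 95% interval from -0.69 to 0.41. The responses differed by 2.47 (limma adjusted p = 0.00119). HMG1 was 13.47 and 13.49 in the null strain at 20 min and 13.61 and 12.98 at 0 min, against 12.59 and 12.21 in the reference strain at 20 min and 13.81 and 13.76 at 0 min. The 2 null arrays at 0 min enclosed those at 20 min, whereas the reference arrays of the 2 times did not overlap. HMG1 fell by 1.39 (SE 0.23) in the reference strain (limma adjusted p = 0.00306) and fell by 0.85 there on median-centred arrays, against a change of 0.18 in the null strain.

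The remaining genes of that pathway had responses of different sizes. ERG10, the acetoacetyl-CoA thiolase that opens it, was 13.62 and 13.85 in the null strain at 20 min and 13.94 and 13.69 at 0 min, against 11.91 and 12.05 in the reference strain at 20 min and 14.08 and 13.74 at 0 min. Its level was low in the reference strain at 20 min alone, where it fell by 1.93 (SE 0.17, limma adjusted p = 0.000241), and the responses differed by 1.84. ERG13, the HMG-CoA synthase that follows, fell by 1.09 in the reference strain (limma adjusted p = 0.00947), but was not called on median-centred arrays, where its change was -0.61 (limma adjusted p = 0.0780). ERG20, which makes farnesyl diphosphate, fell by 1.22 in the reference strain (limma adjusted p = 0.00376) and its change in the null strain, -0.53, did not pass. The 4 enzymes between mevalonate and farnesyl diphosphate had smaller values. Mevalonate kinase ERG12 changed by -0.46 in the null strain and -0.26 in the reference strain, and the decarboxylase MVD1 by -0.37 and -0.29, with no call in either. On median-centred arrays the reference values lay above 0, at 0.03 for ERG12 and 0.20 for MVD1, also without a call. The isomerase IDI1 changed by 0.10 in the null strain and -0.04 in the reference strain, with a 95% interval from -0.44 to 0.36 for the reference strain. On median-centred arrays IDI1 was higher by 0.46 there (limma adjusted p = 0.0497). Phosphomevalonate kinase ERG8 was called lower in the reference strain at -0.30 (limma adjusted p = 0.0449). Leaving out any of 7 of the 8 arrays ended that call. Its value was -0.19 without replicate 3 of the reference strain at 0 min, and on median-centred arrays it was 0.14.

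Squalene synthase ERG9, the first step committed to sterols, had the smallest adjusted p of all members in the reference strain. It lay at 13.01 and 13.22 in the null strain at 20 min and 13.12 and 12.98 at 0 min, against 10.61 and 10.44 in the reference strain at 20 min and 12.89 and 13.00 at 0 min. The reference arrays at 20 min lay more than 2 log2 units under every other array used. ERG9 fell by 2.42 (SE 0.12) in the reference strain (limma adjusted p = 3.83e-05), a 5.33-fold change, and its change in the null strain was 0.06 with a 95% interval from -0.24 to 0.37. The responses differed by 2.48 (SE 0.17, limma adjusted p = 0.00016). The 2 enzymes downstream of it were not called lower in either strain. Squalene epoxidase ERG1 changed by -0.36 in the null strain, which did not pass, and rose by 0.42 in the reference strain (limma adjusted p = 0.0242). That rise was not called without any 1 of the 4 reference arrays (limma adjusted p from 0.0650 to 0.106), and it was 1.01 on median-centred arrays. The responses of ERG1 differed by -0.78 (limma adjusted p = 0.0102). Lanosterol synthase ERG7 changed by -0.14 in the null strain and 0.18 in the reference strain, with neither called, and by 0.67 in the reference strain on median-centred arrays (limma adjusted p = 0.00934).

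Of the 11 genes that act between lanosterol and ergosterol, 2 fell in the null strain and 8 fell in the reference strain, with 1 higher there. Among all genes 14.7% fell in the null strain, and 33% fell and 39.3% rose in the reference strain. Sterol methyltransferase ERG6 was 14.23 and 14.48 in the null strain at 20 min and 14.44 and 14.11 at 0 min, against 12.43 and 12.34 in the reference strain at 20 min and 14.91 and 14.63 at 0 min. The null arrays of the 2 times overlapped, and the reference arrays of the 2 times did not. ERG6 fell by 2.39 (SE 0.17) in the reference strain (limma adjusted p = 0.000123), and the responses differed by 2.47. Sterol reductase ERG24 was 12.17 and 12.31 in the null strain at 20 min and 12.52 and 12.39 at 0 min, against 10.22 and 10.25 in the reference strain at 20 min and 12.51 and 12.22 at 0 min. It was low on the reference arrays at 20 min and fell there by 2.13 (SE 0.13, limma adjusted p = 6.75e-05), while its change in the null strain, -0.22, did not pass. ERG28, the scaffold that holds the demethylation enzymes together at the endoplasmic reticulum, was 12.45 and 12.75 in the null strain at 20 min and 12.31 and 12.55 at 0 min, against 10.46 and 10.70 in the reference strain at 20 min and 12.33 and 12.19 at 0 min. Its pattern over the groups was like that of ERG24, with a fall of 1.68 in the reference strain (limma adjusted p = 0.000349) and a response difference of 1.85.

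The other late enzymes changed less. The cytochrome P450 desaturase ERG5 fell by 1.03 in the reference strain (limma adjusted p = 0.00107), or at -0.48 on median-centred arrays, against a change of 0.03 in the null strain. Of the 3 enzymes that work on the ERG28 scaffold, ERG27 fell by 0.68 in the reference strain (limma adjusted p = 0.00563), and was not called on median-centred arrays, at -0.38. The oxidase ERG25 was called at -0.45 (limma adjusted p = 0.0054), and the demethylase ERG11, the target of azole antifungals, at -0.41 (limma adjusted p = 0.0116). Neither call held on values as deposited, and on median-centred arrays both lay above 0, at 0.18 for ERG25 and 0.21 for ERG11, without a call. The ERG11 call also ended without replicate 3 of the reference strain at 20 min (limma adjusted p = 0.0582) or replicate 1 at 0 min (0.0503).

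The late genes called in the null strain were ERG2 and ERG26. Sterol isomerase ERG2 lay at 12.69 and 12.75 in the null strain at 20 min and 13.59 and 13.53 at 0 min, against 13.43 and 13.33 in the reference strain at 20 min and 13.85 and 13.61 at 0 min. It was low in the null strain at 20 min and fell there by 0.84 (SE 0.11, limma adjusted p = 0.00649). In the reference strain it was called at -0.35 (limma adjusted p = 0.0306), a call that ended on leaving out any of 5 of the 8 arrays, with -0.23 without replicate 1 at 0 min and 0.19 on median-centred arrays. The responses of ERG2 differed by -0.49 (limma adjusted p = 0.0340), a call that held without replicate 1 of the reference strain at 0 min and ended without any of the other 7 arrays. The dehydrogenase ERG26, the other scaffold partner, was 10.94 and 11.11 in the null strain at 20 min and 12.001 and 11.62 at 0 min, against 11.80 and 12.06 in the reference strain at 20 min and 11.88 and 12.19 at 0 min. It fell by 0.79 in the null strain (limma adjusted p = 0.0340), and the call ended on leaving out either null array at 20 min, replicate 1 of the null strain at 0 min or either reference array at 20 min (limma adjusted p from 0.0559 to 0.132), and on median-centred arrays (0.0564). The last reductase, ERG4, rose by 0.71 in the reference strain (limma adjusted p = 0.0195), a call that ended without either reference array at 20 min or replicate 3 at 0 min, and by 1.16 on median-centred arrays. It changed by -0.04 in the null strain. The desaturase ERG3 changed by -0.42 in the null strain and -0.30 in the reference strain, or 0.23 in the reference strain on median-centred arrays, none called.

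Both electron donors were measured. Cytochrome b5, encoded by CYB5, feeds electrons to the desaturation and demethylation steps. It was 11.14 and 11.44 in the null strain at 20 min and 12.66 and 12.63 at 0 min, against 13.72 and 13.63 in the reference strain at 20 min and 12.89 and 13.06 at 0 min. The 2 strains moved apart, with no overlap of the times within either. CYB5 fell by 1.35 (SE 0.13) in the null strain (limma adjusted p = 0.0031) and rose by 0.70 in the reference strain (limma adjusted p = 0.00448), or by 1.21 there on median-centred arrays. The difference between the responses was -2.05 (SE 0.18, limma adjusted p = 0.000342). NCP1, the reductase that serves the cytochrome P450 enzymes, changed by -0.07 in the null strain and -0.06 in the reference strain, and the 95% interval for the reference strain was -0.54 to 0.41. On median-centred arrays both lay above 0 without a call, at 0.16 in the null strain and 0.41 in the reference strain.

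Of the 3 regulators, UPC2 (YDR213W), the sterol sensing activator, had the largest difference between the strains' responses among the members. It lay at 6.01 and 6.07 in the null strain at 20 min and 7.86 and 8.48 at 0 min, against 9.71 and 10.13 in the reference strain at 20 min and 7.27 and 7.59 at 0 min. The null strain was lowest and the reference strain highest after glucose, and no group overlapped another. UPC2 fell by 2.13 (SE 0.26) in the null strain (limma adjusted p = 0.00545), a 4.37-fold change. It rose by 2.49 (SE 0.26) in the reference strain (limma adjusted p = 0.000446), but by 0.97 there on values as deposited and 1.47 on median-centred arrays, with both called. The difference between the responses was -4.62 (SE 0.36, limma adjusted p = 0.000231), and it was -4.00 as deposited and -4.25 on median-centred arrays. The replicate 2 arrays, by their labels, read 8.04 in the null strain at 20 min and 5.53 at 0 min, against 7.25 in the reference strain at 20 min and 9.61 at 0 min, which is the opposite order in both strains.

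SUT1 (YGL162W), a regulator of sterol uptake induced under low oxygen, moved the same way in both strains. It was 12.74 and 12.45 in the null strain at 20 min and 9.47 and 9.86 at 0 min, against 11.36 and 11.61 in the reference strain at 20 min and 9.27 and 9.78 at 0 min. It was high on all 4 arrays taken after glucose and higher in the null strain among these. SUT1 rose by 2.93 (SE 0.24) in the null strain (limma adjusted p = 0.00244), a 7.62-fold change that ranked 68 by size among all genes, and by 1.96 in the reference strain (limma adjusted p = 0.000849). The responses differed by 0.97 (limma adjusted p = 0.0485), a call that ended for every left-out array except replicate 3 of the null strain at 0 min and replicate 1 of the reference strain at 0 min (limma adjusted p from 0.0640 to 0.136). ECM22, the paralogue of UPC2, did not pass in either strain: it changed by 0.60 in the null strain (limma adjusted p = 0.102) and -0.06 in the reference strain. Without replicate 1 of the null strain at 0 min its change there was 0.89 and was called (limma adjusted p = 0.0366), and as deposited its change in the reference strain was -0.60 and was called (limma adjusted p = 0.0370).

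The sterol acyltransferases ARE1 and ARE2, which esterify sterols for storage, parted in the null strain. ARE2 was 9.08 and 9.08 in the null strain at 20 min and 7.005 and 6.72 at 0 min, against 8.42 and 9.27 in the reference strain at 20 min and 5.36 and 5.49 at 0 min. It was higher after glucose in both strains with no overlap between times. ARE2 rose by 2.21 (SE 0.28) in the null strain (limma adjusted p = 0.00633) and by 3.42 (SE 0.28) in the reference strain (limma adjusted p = 0.000203). As deposited these changes were 1.07 in the null strain, without a call (limma adjusted p = 0.107), and 1.32 in the reference strain, and on median-centred arrays they were 1.32 and 1.82 with both called. The difference between the strains' responses, -1.20 (limma adjusted p = 0.0416), was -0.25 as deposited and -0.50 on median-centred arrays, without a call. It was -0.78 and called without replicate 3 of the reference strain at 20 min, and was not called on leaving out any of 6 of the other arrays.

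ARE1 was 8.94 and 9.25 in the null strain at 20 min and 9.71 and 9.82 at 0 min, against 10.33 and 10.35 in the reference strain at 20 min and 9.59 and 9.24 at 0 min. After glucose it was low in the null strain and high in the reference strain. ARE1 fell by 0.67 in the null strain (limma adjusted p = 0.0347), a call that ended on leaving out any of 6 of the 8 arrays (limma adjusted p from 0.0536 to 0.128), and its change there was -1.19 as deposited. It rose by 0.92 in the reference strain (limma adjusted p = 0.00366), but by 0.11 as deposited, where it was not called. The difference between the responses was -1.58 (limma adjusted p = 0.002) and held under each scaling and each left-out array. HES1, a sterol binding protein of the OSH family, was the dimmest member, at 4.85 and 4.53 in the null strain at 20 min and 4.74 and 5.88 at 0 min, against 4.48 and 4.32 in the reference strain at 20 min and 4.46 and 4.99 at 0 min. On these values the times overlapped in both strains and no change was called. Its reference change of -0.32 was -2.33 as deposited and -1.83 on median-centred arrays, both called.

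**Figure D2:**
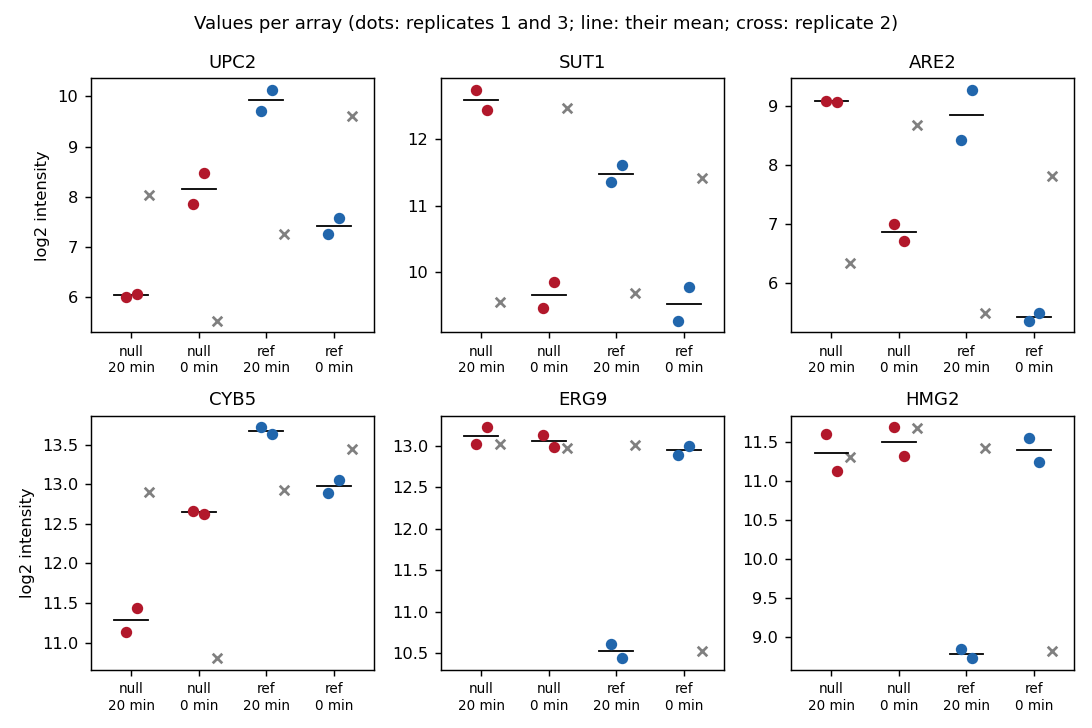
Log2 intensity (y axis) of UPC2, SUT1, ARE2, CYB5, ERG9 and HMG2 on each array, with null 20 min, null 0 min, reference 20 min and reference 0 min from left to right. Dots are replicates 1 and 3, lines are their means and crosses are replicate 2. ERG9 and HMG2 are low on the dots of the reference strain at 20 min, UPC2 and CYB5 move in opposite directions in the 2 strains, and the crosses of the reference strain lie with the other labelled time.

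At steady state on ethanol, before glucose, limma called none of the 31 members between the null and the reference strain, beside 1.28% of all genes (0.881% higher and 0.404% lower). At an unadjusted p under 0.05 in limma, 5 of the 31 members passed, beside 859 of 5449 genes, which is a like share. The median member differed by -0.02 and the median gene by 0.00. The lowest adjusted p belonged to ARE2, higher by 1.43 in the null strain (SE 0.28, limma adjusted p = 0.116). Its 2 null arrays at 0 min, at 7.005 and 6.72, lay above the reference arrays, at 5.36 and 5.49. Without replicate 1 or replicate 3 of the reference strain at 20 min, which enter only through the shared spread, this difference was called (limma adjusted p = 0.0403). UPC2 differed by 0.74 (limma adjusted p = 0.284) and ERG7 by -0.56 (limma adjusted p = 0.170).

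At 20 min after the pulse, 21 members or 67.7% differed between the null and the reference strain, beside 75.4% of all genes. Of these, 13 members or 41.9% were higher in the null strain, beside 36.5% of all genes, and 8 or 25.8% were lower, beside 38.8%. The median member was higher by 0.23 in the null strain, and the median gene differed by -0.04. These contrasts share their 20 min arrays with the responses above, so they restate those arrays and are not a second test of them. In the mevalonate pathway 5 of 9 genes were higher in the null strain and none lower. HMG2 was higher by 2.58 (SE 0.22, limma adjusted p = 0.000167), a 5.98-fold difference, ERG10 by 1.75 (limma adjusted p = 0.000268) and HMG1 by 1.08 (limma adjusted p = 0.00751). ERG13 was higher by 0.75 and ERG20 by 0.67, calls that ended without replicate 3 of the null strain at 20 min, where the values were 0.49 and 0.43, and without either reference array at 20 min. The ERG20 call also ended without either null array at 0 min, and the ERG13 call on median-centred arrays. ERG12, ERG8, MVD1 and IDI1 lay between -0.33 and 0.04 and were not called, although MVD1 was called without either null array at 0 min (limma adjusted p = 0.0422).

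Squalene synthase ERG9 was higher by 2.59 (SE 0.12) in the null strain at 20 min, a 6.02-fold difference (limma adjusted p = 2.1e-05). The next 2 enzymes were lower there, ERG1 at -0.75 (limma adjusted p = 0.00238) and ERG7 at -0.88 (limma adjusted p = 0.00167). Among the late enzymes 6 of 11 were higher in the null strain and 3 lower, beside 36.5% and 38.8% of all genes. The higher ones were ERG28 at 2.02, ERG24 at 2.00, ERG6 at 1.97, ERG5 at 1.11, ERG27 at 0.61 and ERG25 at 0.50. Of these, ERG25 was not called on median-centred arrays, where it was 0.33 (limma adjusted p = 0.0851). The lower ones were ERG4 at -0.96 (limma adjusted p = 0.00575), ERG26 at -0.90 (limma adjusted p = 0.00666) and ERG2 at -0.66 (limma adjusted p = 0.00245). ERG11 differed by 0.16 and ERG3 by -0.23, with no call. The genes called lower in the null strain at 20 min in the biosynthetic steps were thus ERG1, ERG7, ERG26, ERG2 and ERG4. All lie downstream of squalene synthase, as do the 6 late enzymes that were higher. The responses of ERG7 (-0.32), ERG26 (-0.68) and ERG4 (-0.75) were not called different between the strains (limma adjusted p = 0.179, 0.0698 and 0.0562). ERG7 already differed by -0.56 at 0 min, without a call.

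The largest difference at 20 min among the members was that of UPC2, at -3.88 (SE 0.26), which is 14.7-fold lower in the null strain (limma adjusted p = 6.63e-05) and ranked 611 by size among all genes. CYB5 was also lower there, at -2.38 (SE 0.13, limma adjusted p = 3.34e-05), and so was ARE1, at -1.24 (limma adjusted p = 0.000935). SUT1 was higher by 1.11 in the null strain (limma adjusted p = 0.00737). ARE2 differed by 0.23 with a 95% interval from -0.48 to 0.94, and by 0.65 with a call without replicate 3 of the reference strain at 20 min (limma adjusted p = 0.0229). ECM22 differed by 0.40, HES1 by 0.29 and NCP1 by 0.08, none of them called, although ECM22 was called as deposited at 0.60 (limma adjusted p = 0.0346).

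**Figure D3:**
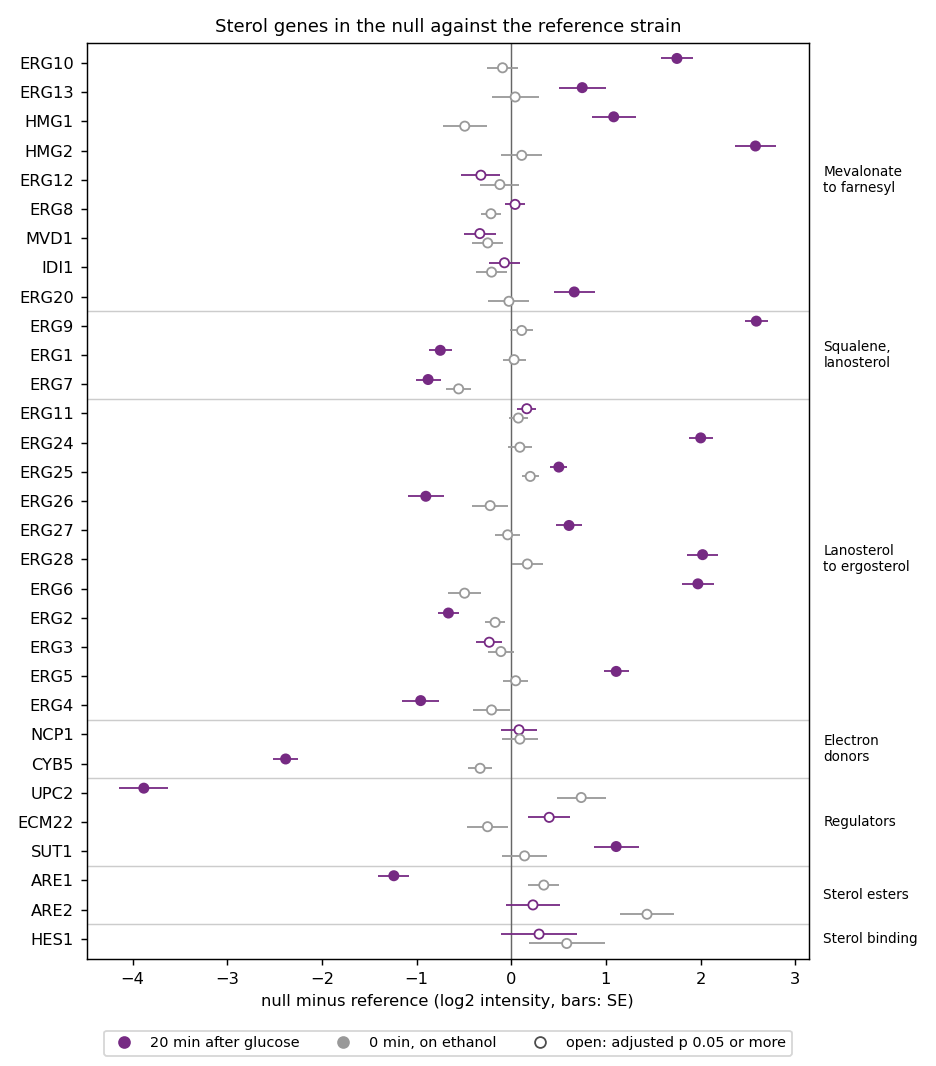
Difference between the null and the reference strain for each member, as null minus reference log2 intensity on the x axis (replicates 1 and 3, bars are SE), with 20 min in purple above 0 min in grey and open points for an adjusted p of 0.05 or more. All grey points are open, while at 20 min ERG9, HMG2, ERG28, ERG24 and ERG6 lie at about 2 or more and UPC2 lies near -3.88.

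Genes around the pathway were described from 7 lists that hold 79 further measured genes. Their counts stand beside 12.9% of all genes that rose and 14.7% that fell in the null strain, and 39.3% and 33% in the reference strain. At 20 min 36.5% of all genes were higher and 38.8% lower in the null strain. The values named below by the size of their change, all of them called, were recomputed under 3 other scalings and with each of the 8 arrays left out, and none of these changed sign. The scalings were the values as deposited, median centring and quantile normalization of the 8 arrays alone. Of the 14 calls named for the null strain, those of TIR1 and COQ2 held throughout and the other 12 were lost at least once. Leaving out a null array ended 6 (replicate 1) or 9 (replicate 3) of the 14 at 20 min and 7 or 9 at 0 min, and leaving out a reference array ended 5 at 20 min and 2 at 0 min. For the reference strain 19 of 21 calls held, and 18 of 21 held between the strains at 20 min.

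Sterol transport holds the lipid transfer proteins that move sterol between membranes. Of its 17 genes, 1 rose and none fell in the null strain, and 3 rose and 12 fell in the reference strain. As deposited none rose and none fell in the null strain, and none rose and 12 fell in the reference strain. ARV1, which takes part in lipid traffic from the endoplasmic reticulum, was the gene that rose in the null strain, by 0.89 (limma adjusted p = 0.0166), but as deposited its change was 0.02, without a call. In the reference strain the contact site protein LAM5 fell by 3.94 (limma adjusted p = 1.79e-05), the vacuolar NCR1 fell by 3.08 and the oxysterol binding homologue OSH2 fell by 2.93. The null strain was higher at 20 min for 11 of the 17 and lower for 3, with LAM5 higher by 4.03, NCR1 by 2.92 and SIP3 by 2.71.

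Degradation at the endoplasmic reticulum controls the amount of Hmg2 and of squalene epoxidase protein. Of its 14 genes, none rose and 3 fell in the null strain, and 1 rose and 11 fell in the reference strain. On median-centred arrays the null counts were 1 and 1. NSG1, a protein that binds Hmg2, fell by 1.11 in the null strain (limma adjusted p = 0.0147), NPL4 fell by 0.71 and CUE1 fell by 0.63. The membrane recruiter UBX2 in the reference strain fell by 3.76, the segregase CDC48 fell by 3.54 and the derlin DFM1 fell by 3.36 (limma adjusted p = 1.41e-05, 1.12e-05 and 2.44e-05). Of the 14, 10 were higher and 1 was lower in the null strain at 20 min, with UBX2 higher by 3.64, CDC48 by 3.49 and DFM1 by 3.25.

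Sterol ester hydrolysis and sterol acetylation held 5 genes, of which none rose and 1 fell in the null strain, while 3 rose and 2 fell in the reference strain. As deposited and on median-centred arrays 2 fell in the null strain. ATF2, which acetylates sterols, fell by 1.19 in the null strain (limma adjusted p = 0.0433) and rose by 3.97 in the reference strain (limma adjusted p = 0.000173), and at 20 min it was lower in the null strain, at -5.55. Its fall in the null strain was -0.70 without replicate 1 at 20 min and -1.82 as deposited, both called, and the call ended on leaving out either null array at 0 min or any of the 4 reference arrays. The steryl ester hydrolase YEH2 rose by 2.29 and the hydrolase TGL1 fell by 2.26 in the reference strain. As deposited these reference changes were 2.29 for ATF2, 1.48 for YEH2 and -4.09 for TGL1, all called. At 20 min the null minus reference difference was -3.12 for YEH2 and 2.70 for TGL1, or 4.07 for TGL1 as deposited.

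Sterol uptake and anaerobic cell wall genes numbered 10, of which 5 rose and none fell in the null strain, and 7 rose and 1 fell in the reference strain. As deposited the null counts were 4 and 0 and the reference counts 2 and 1. In the null strain PAU24 rose by 2.67, TIR2 by 2.24 and TIR1 by 1.59 (limma adjusted p = 0.00993, 0.0197 and 0.00604). PAU24 belongs to a family of near-identical genes, so its probe set can read its relatives. The mannoproteins TIR2, TIR1 and TIR3 in the reference strain rose by 3.51, 2.52 and 2.27. As deposited these were 1.20 with a call, and 0.35 and 0.58 without, and TIR3 also missed the threshold without replicate 3 of the reference strain at 0 min (limma adjusted p = 0.0524). At 20 min the null minus reference difference was 1.89 for PAU24, 1.61 for DAN4 and -1.53 for TIR3. As deposited PAU24 was at 2.95 and DAN4 at 2.56, TIR3 was -0.85 without replicate 1 of the null strain at 20 min, and the calls of DAN4 and TIR3 ended on leaving out single arrays. DAN1 lay at the lowest value on all 12 arrays. Sterol uptake itself rests on the transporters AUS1 and PDR11, given here for that role with their values already seen. AUS1 was 9.91 and 10.40 in the null strain at 20 min and 10.38 and 9.41 at 0 min, against 10.46 and 10.48 in the reference strain at 20 min and 9.92 and 9.86 at 0 min. PDR11 was 10.73 and 10.82 in the null strain at 20 min and 9.78 and 9.64 at 0 min, against 10.16 and 10.03 in the reference strain at 20 min and 9.54 and 8.98 at 0 min. The AUS1 times overlapped in the null strain, and it was called in neither strain, with changes of 0.26 in the null strain and 0.58 in the reference strain that were -0.18 and -0.09 as deposited. The null change of AUS1 was -0.23 without replicate 3 of the null strain at 0 min and 0.74 without replicate 1 at 0 min. PDR11 rose by 1.07 in the null strain (limma adjusted p = 0.0163), with a call under each scaling that ended without either null array at 20 min or replicate 3 at 0 min. It rose by 0.83 in the reference strain (limma adjusted p = 0.0113), or by 0.55 without replicate 3 at 0 min, and the call ended without replicate 1 at 20 min. That reference change was -0.08 as deposited and 0.42 on median-centred arrays, neither called.

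Of 8 regulators linked to oxygen and haem, 3 rose and none fell in each strain. The hypoxic repressor ROX1 rose by 1.04, SPT23 by 0.66 and HAP1 by 0.53 in the null strain (limma adjusted p = 0.0388, 0.0316 and 0.0154), and SUT2, the paralogue of SUT1, rose by 2.35, MOT3 by 2.24 and ROX1 by 1.22 in the reference strain. As deposited the change of MOT3 there was 1.24. As deposited, 1 rose and 1 fell in the null strain. At 20 min the null strain was higher for 2 of the 8 and lower for 5, or 1 and 6 as deposited, with SUT2 at -2.36, MOT3 at -2.24 and the corepressor TUP1 at -1.29, whose call ended without any 1 of the 4 arrays at 20 min. Of 11 haem genes limma called none in the null strain, where 3 passed at an unadjusted p under 0.05, and 1 rose and 6 fell in the reference strain. As deposited and on median-centred arrays 1 haem gene fell in the null strain. In the reference strain ferrochelatase HEM15 fell by 3.80, DAP1, which binds and supports the Erg11 enzyme, fell by 3.07 and haem oxygenase HMX1 fell by 1.84. At 20 min the null strain was higher for 7 of the 11 and lower for 2, with HEM15 at 3.92, HEM14 at 2.36 and HEM3 at -3.45, or 3.69 for HEM14 and -1.94 for HEM3 as deposited.

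Among 14 other users of isoprenoids, 4 rose and 1 fell in the null strain, and 6 rose and 5 fell in the reference strain. As deposited the direction turned: 1 rose and 4 fell in the null strain, and 4 rose and 7 fell in the reference strain. COQ2, of ubiquinone synthesis, fell by 0.99 in the null strain (limma adjusted p = 0.0031), where the prenyltransferase subunits CDC43 and BET4 rose by 0.94 and 0.87, or 0.43 and 0.41 without a call as deposited. COQ1, which makes the ubiquinone side chain, fell by 4.05 in the reference strain, whereas SRT1 and RER2, which make dolichol, rose by 4.06 and 2.55 there. The null strain exceeded the reference at 20 min for 7 of the 14 and lay below it for 5, with COQ1 at 3.88, RER2 at -3.18 and MOD5 at -2.42. SRT1 changed by 1.71 in the reference strain as deposited and was dim, with its reference arrays at 3.49 and 3.27 at 0 min.

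**Figure D4:**
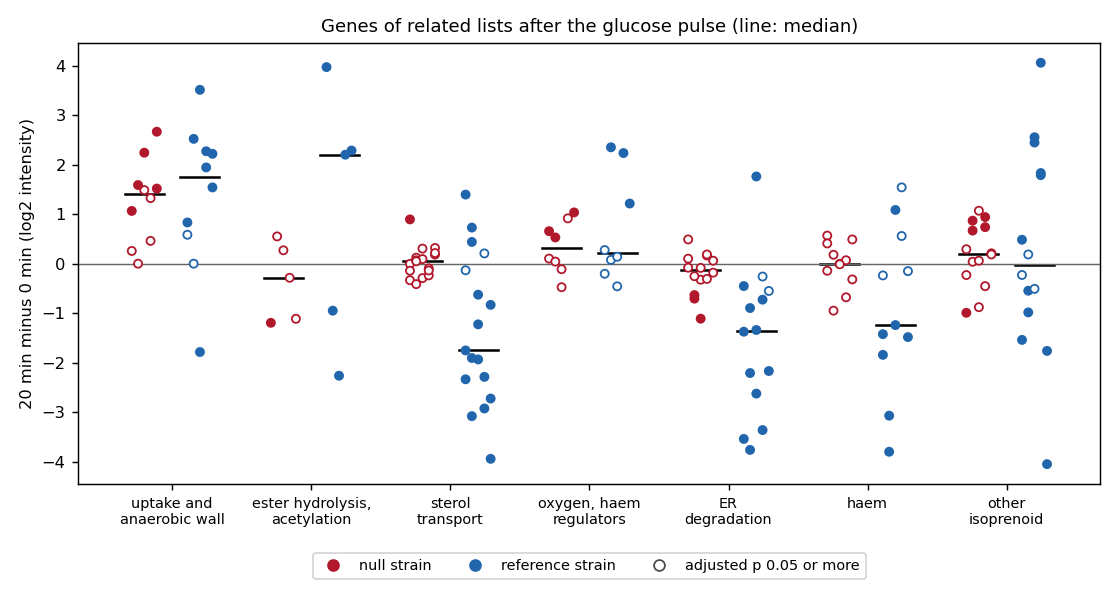
Response of the 79 genes in the 7 related lists, as log2 intensity at 20 min minus 0 min on the y axis, with the null strain in red to the left of the reference strain in blue, filled points for an adjusted p under 0.05 and a line at each median. Sterol transport and degradation at the endoplasmic reticulum lie mostly below 0 in the reference strain, and sterol uptake and anaerobic wall genes lie mostly above 0 in both strains.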

How the data were processed

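Per the labels' protocols, RNA came from frozen cell pellets by column extraction with DNase digestion, and 5 ug per sample was turned into biotin-labelled cRNA. The values used are log2 intensities of probe sets deposited by the authors. The sources used here do not name the software that made them. Of 10928 probe sets, 5498 matched S. cerevisiae genes through the probe table, or 5449 genes when each kept its brightest probe set. Array medians ranged from 10.34 to 10.90, and the 12 arrays were quantile normalized together.

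With limma 3.58.1 (R 4.3.3), 4 group means were fitted to replicates 1 and 3 (8 arrays, 4 residual degrees of freedom), with eBayes variances and p-values adjusted over all genes by Benjamini-Hochberg, for 5 contrasts: 20 against 0 min in each strain, the difference of these, and null against reference at each time. The number of arrays limits the precision. The members, lists and tests were chosen with earlier results of these data known. Every member is named, and from each related list up to 3 called genes with the largest change per contrast. MOX4 is UPC2 and LAM1 is YSP1, each counted once, and DAN2 and DAN3 are now PAU23 and PAU24, of a multigene family. The replicate number was not used as a block. The test was checked on simulated data for the response in the null strain. Changes of 1 log2 unit were recovered for 36 of 67 genes, of 2 for 56 of 67 and of 4 for 64 of 66. There were 9 false calls. Changes of about 1 log2 unit were thus often missed. Figures used matplotlib 3.10.9 in Python 3.11.15.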

Additional observations from a re-analysis of the deposited data

Results flagged for a closer look

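For 16 members the response to glucose differed between the strains, as tested by the strain-by-time interaction in limma on replicates 1 and 3. Values are the response of the null strain minus that of the reference strain in log2 units. The differences below 0 were UPC2 at -4.62, CYB5 at -2.05, ARE1 at -1.58, ARE2 at -1.20, ERG1 at -0.78 and ERG2 at -0.49. Those above 0 were ERG27 at 0.65, SUT1 at 0.97, ERG5 at 1.06, HMG1 at 1.57, ERG10 at 1.84, ERG28 at 1.85, ERG24 at 1.91, ERG6 at 2.47, HMG2 at 2.47 and ERG9 at 2.48. Of these, 12 kept their sign and call under the 3 scalings and with each of the 8 arrays left out, and ARE2, ERG2, ERG27 and SUT1 did not. The 3 scalings were the values as deposited, median centring and quantile normalization of the 8 arrays alone. The last lay close to the values listed, with UPC2 at -4.59. With all 12 arrays under their labels none of the 16 was called, and 0 passed at an unadjusted p under 0.05. The number of all genes that passed there is not given.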

How the results depend on the processing

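Under the labels of all 12 arrays limma called 0 members for the response in the null strain, the response in the reference strain, the response difference and the strain difference at 20 min. With array weights on 12 arrays, 15 members were called for the response in the null strain, where the replicate 2 arrays had weights from 0.0548 to 0.370 and the others from 1.04 to 6.02. The share of all genes called with array weights is not given here, so that count is not a result about the members. Requiring an absolute log2 difference of at least 1 left 4 of the 31 members for the response in the null strain, beside 798 of 5449 genes. It left 13 members in the reference strain, beside 2864 genes, and 12 members between strains at 20 min, beside 3148 genes. With only genes of mean log2 intensity of at least 6, 1 member, ARE2, was called between strains at 0 min. Leaving out 1 array at a time gave 5 to 7 members for the response in the null strain, 17 to 21 in the reference strain, 12 to 16 for the response difference, 0 to 1 at 0 min and 19 to 21 at 20 min. On median-centred arrays the reference responses of ERG2 (0.19), ERG8 (0.14), ERG11 (0.21), ERG25 (0.18), IDI1 (0.46), ERG3 (0.23), ERG12 (0.03), ERG26 (0.26), MVD1 (0.20) and NCP1 (0.41) reversed their sign, of which ERG2, ERG8, ERG11 and ERG25 had been called and only IDI1 was called on those arrays, and the median of all genes there was 0.11 against -0.38 as deposited. In the null strain 9 members without a call turned sign on median-centred arrays, and no called member did. With the replicate block on the 8 arrays, 5 members were called for the response in the null strain, 21 in the reference strain, 15 for the response difference, 0 at 0 min and 21 at 20 min. No share of all genes is given for the block, for the arrays left out or for all 12 arrays under their labels. The counts under those settings therefore do not set the members apart from other genes. The labels do not say what a number shares. On the 8 arrays the difference of replicate 1 minus replicate 3 correlated across genes from -0.29 to 0.08 between groups, above 0.1 for 0 of 6 group pairs, and with 2 numbers this does not settle whether they pair the arrays. The cause of these changes was not tested. With 4 residual degrees of freedom small differences could be missed, so a member without a call is not shown to be unchanged.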
